A study of Mus musculus with 10 samples.

Results

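Peroxisomal fatty acid oxidation was followed through 7 genes: Abcd2, Abcd3, Acox2, Acox3, Ehhadh, Hsd17b4 and Acaa1b. They were chosen as genes of the pathway with earlier results of these arrays known. Every probe set that the platform annotation gives to 1 of them alone was taken: 13 of the 34945 probe sets with 1 gene, or 7 of 18193 genes. Affymetrix arrays measured total RNA of mouse brown adipose tissue, the fat depot that makes heat. Each of 5 arrays came from a sample labelled wild type (WT) and each of 5 from a sample labelled knockout (KO) of Sirt3, a mitochondrial deacetylase. Per the labels, the mice of both groups were littermates of approximately 1 year on the 129 background and had received no treatment. The sources used here do not give the allele, the deleted part of Sirt3 or the cells in which it was lost.

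Peroxisomes shorten the fatty acids that mitochondria handle poorly: very long chains, methyl-branched chains, dicarboxylic acids and the side chains of bile acid precursors. ABC transporters of the membrane (Abcd2, Abcd3) bring in the CoA esters, acyl-CoA oxidases (Acox2, Acox3) take the first step and make hydrogen peroxide, bifunctional enzymes (Ehhadh, Hsd17b4) hydrate and dehydrogenate, and thiolases (Acaa1b) cleave off acetyl-CoA. Genes of this pathway are known targets of PPAR alpha, a fatty acid receptor, and brown fat is rich in peroxisomes.

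The promoters of Ehhadh and Abcd3 are shown because these genes had the most similar course over the 10 arrays among all pairs of members (below). Each sequence is the 250 bases before the start of transcription, from RefSeq (GRCm38.p6), 5′ to 3′ on the strand of the gene, with CCAAT and GGGCGG in capitals where they occur on either strand. The Ehhadh window is chr16:21787835-21788084 on the minus strand, and the Abcd3 window, that of the outer of its 2 listed starts, is chr3:121815303-121815552 on the minus strand.
Ehhadh: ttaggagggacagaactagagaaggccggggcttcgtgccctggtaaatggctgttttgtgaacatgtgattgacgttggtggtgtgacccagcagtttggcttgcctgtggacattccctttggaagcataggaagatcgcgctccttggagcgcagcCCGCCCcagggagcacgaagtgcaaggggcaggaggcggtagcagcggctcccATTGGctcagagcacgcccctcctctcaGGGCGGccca
Abcd3: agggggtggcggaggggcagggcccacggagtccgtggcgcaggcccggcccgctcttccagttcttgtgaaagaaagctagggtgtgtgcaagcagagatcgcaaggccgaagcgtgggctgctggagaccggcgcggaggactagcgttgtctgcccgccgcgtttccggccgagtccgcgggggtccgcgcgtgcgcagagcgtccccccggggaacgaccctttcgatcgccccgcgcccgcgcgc
The Ehhadh window held 1 CCAAT match, which begins 38 bases before the start, and 2 GGGCGG matches, at 91 and 10 bases before it, with no overlap among the 3. The Abcd3 window held neither motif, and its GC content was 72.0% against 60.4% for Ehhadh. Over all 32851 promoter windows of this length, 33.8% held CCAAT and 32.7% held GGGCGG, so such matches are common. AGGTCA, the core letters read by PPAR and related receptors, was in 14.0% of all windows and in 0 of the 7 windows listed for Abcd3, Acaa1b, Acox2, Acox3 and Ehhadh. A direct repeat of AGGTCA with 1 base between the copies, up to 2 mismatches allowed on either strand, was in 3.24% of all windows and in 0 of those 7. So few windows, of which those of Acox2 overlap each other, cannot set the members apart from these shares. Sequence outside the 250 bases was not searched, so sites elsewhere would not show. Abcd2 and Hsd17b4 were not matched.

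Values are log2 signals, so 1 unit is a doubling, and array medians lay between 5.58 and 5.61. Ucp1, the uncoupling protein that defines brown adipocytes, had a mean of 14.14, and the mean of the brown adipocyte markers lay between 11.28 and 11.91 in every array. Sirt3 itself was not lower in the arrays labelled KO: it read 10.13 ± 0.10 (SD, n = 5) in WT and 10.32 ± 0.07 (SD, n = 5) in those, so every direction below refers to the labels. Arrays differed in RNA of skeletal muscle, whose 20 markers averaged 7.31 to 11.42 in WT and 5.24 to 10.64 in arrays labelled KO, lowest in KO 3 (5.24), KO 1 (5.52) and WT 5 (7.31). WT 4 and WT 5 stood apart in Lep, the leptin gene, at 6.34 and 5.75 against 7.92 to 10.23 in the other 8 arrays. They also stood apart in Dio2, a brown adipocyte marker, at 11.20 and 11.32 against 8.65 to 9.95. Their means of the brown adipocyte markers were the highest, at 11.83 and 11.91. The 3′ minus 5′ signal of the Pcx control, a sign of RNA quality, was lower with the KO label, at 2.88 ± 0.07 (SD, n = 5), than in WT, at 3.25 ± 0.20 (SD, n = 5). The groups did not overlap in it, at 2.77 to 2.95 with the KO label and 2.96 to 3.44 in WT. Its part in the results cannot be told apart from that of the label and was not tested. The same measure overlapped between groups for the Actb control, at 0.64 ± 0.11 (SD, n = 5) with the KO label and 0.59 ± 0.20 (SD, n = 5) in WT, and for the Gapdh control, at -0.13 ± 0.015 and -0.12 ± 0.011. Median differences of the marker lists, KO minus WT, were -1.61 for skeletal muscle, -0.08 for brown adipocytes, -0.04 for adipocytes of any kind and -0.010 for white adipocytes. They were -0.14 for macrophages, 0.15 for endothelium, -0.20 for fibroblasts, -0.016 for hepatocytes and -0.019 for lymphocytes, and 0 markers passed the test described next. Single arrays weighed on several of these medians. Muscle was -0.82 without KO 1 and -0.80 without KO 3, brown adipocytes -0.037 without WT 4, -0.013 without WT 5 and -0.05 without KO 3, macrophages -0.08 without WT 5 and endothelium 0.07 without WT 3. The medians of white adipocytes, adipocytes of any kind, hepatocytes and lymphocytes changed sign when 1 array or another was left out.

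The comparison between genotypes asks whether these transcripts differed between arrays labelled KO and WT. None of the 7 genes passed. In the limma fit across all genes, 5 were higher and 2 lower in arrays labelled KO, their median difference was 0.018 log2 units against -0.013 over all genes, and their adjusted p-values lay between 0.914 and 0.999. An adjusted p under 0.05 was reached by 0 of 7 members and by 0.00% of the 18193 genes, and an unadjusted p under 0.05 by 0 of 7 and by 4.68%. In 0 of 7 did the groups fail to overlap, which happened in 0.627% of all genes. Among single probe sets, 0 of 13 passed (0.00% of 34945), and 2 of 13 had an unadjusted p under 0.05, against 5.41% of all.

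The width of the intervals differed widely between members. For Hsd17b4 the 95% confidence interval ran from -0.09 to 0.13 log2 units, and for Acox3 from -0.04 to 0.20. For Ehhadh it ran from -0.88 to 0.89 and for Abcd2 from -0.17 to 1.19, so these data leave room for sizeable changes of either transcript.

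**Figure D1:**
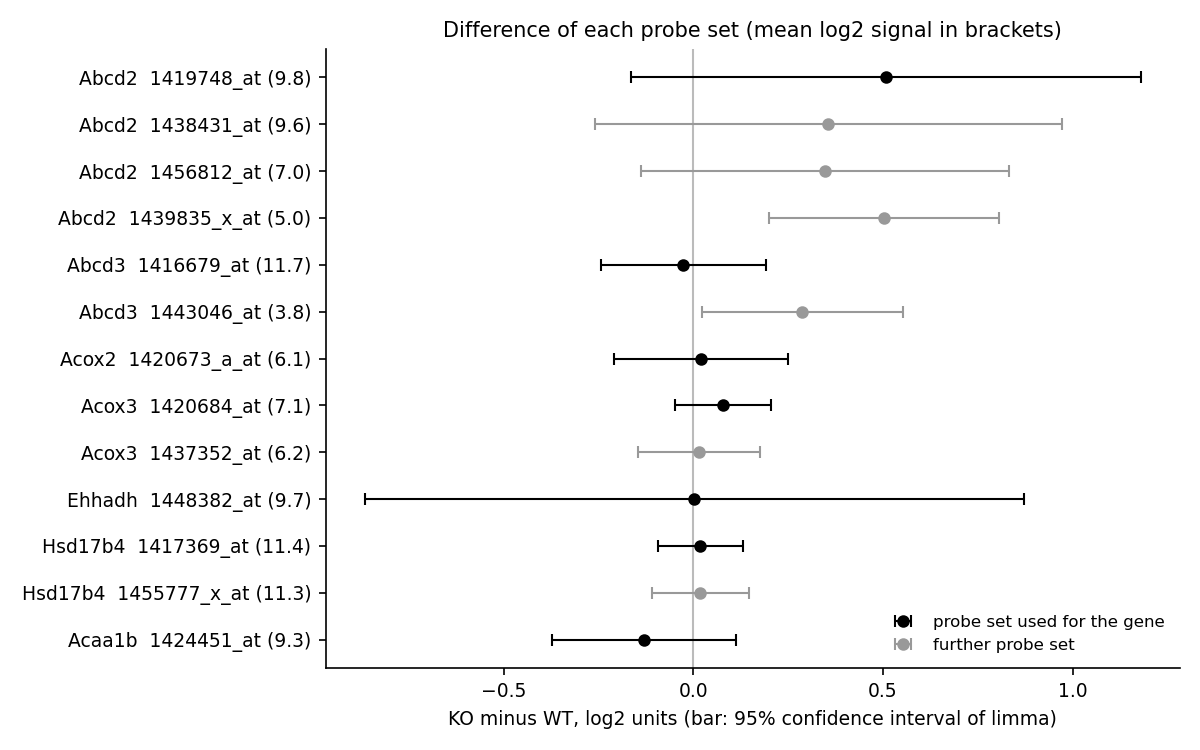
Difference of each of the 13 probe sets between arrays labelled KO and WT, in log2 units, with the 95% confidence interval of limma; black marks the probe set used for the gene and grey a further one, and the mean log2 signal stands in brackets. The interval of Ehhadh is the widest, at -0.87 to 0.87 in this fit over all probe sets, the 4 sets of Abcd2 all lie above 0, and 2 dim sets, of Abcd2 and Abcd3, have intervals that do not reach 0.

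Abcd2 encodes a transporter of very long-chain acyl-CoA that is known to be abundant in adipose tissue. Its log2 signal in WT arrays 1 to 5 was 10.35, 10.26, 9.56, 8.77 and 8.98, and in KO arrays 1 to 5 it was 10.53, 9.65, 10.25, 10.32 and 9.70. WT 4 and WT 5 were the lowest of the 10 arrays, the other WT arrays lay among or just below those labelled KO, and the groups overlapped. WT averaged 9.58 ± 0.72 (SD, n = 5) and the KO label 10.09 ± 0.39 (SD, n = 5). The KO minus WT difference was 0.51 ± 0.31 log2 units (SE), with an adjusted p of limma of 0.914 and a two-sided exact permutation p of 0.167. Each of the 5 arrays labelled KO exceeded the mean of WT. Without WT 4 and WT 5 the difference was 0.037 ± 0.24 log2 units. As these held the lowest values of all, leaving them out of WT had to lower the difference.

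The 4 probe sets of Abcd2 varied together across arrays. The set used (1419748_at) had r = 0.983 with 1438431_at and 0.977 with 1456812_at over the 10 arrays, and 0.752 with 1439835_x_at, which was dim at a mean of 4.96. Differences of the 3 further sets were 0.36 ± 0.28, 0.35 ± 0.22 and, for the dim set, 0.50 ± 0.14 log2 units (SE). In that dim set the unadjusted p of limma was 0.00367 and its adjusted p over all probe sets 0.885, and 4 of the 5 values labelled KO (5.25 to 5.49) lay above all WT values (4.46 to 4.93). KO 5 lay among WT at 4.70.

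The lowest arrays of Abcd2 were also the lowest in Lep. Lep is a marker of white and lipid-laden adipocytes, and its signal in WT arrays 1 to 5 was 9.46, 9.86, 7.92, 6.34 and 5.75, and in KO arrays 1 to 5 it was 9.83, 8.82, 9.94, 10.23 and 8.01. Within WT the lowest arrays of both transcripts were WT 4 and WT 5, and within those labelled KO they were KO 2 and KO 5. Of the 5 white adipocyte markers 2 were higher and 3 lower, with list means of 6.52 to 7.38 in WT and 6.53 to 7.34 in arrays labelled KO. Retn, the resistin gene, went the other way from Lep at -0.71 ± 0.36 log2 units (SE). It was highest in WT 4 and WT 5, at 9.91 and 9.21. The part of such cells in the Abcd2 result was not tested, and in whole tissue fewer cells of a type and less RNA per cell cannot be told apart.

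Abcd3 encodes the transporter for long-chain, branched-chain and dicarboxylic acyl-CoA, an abundant protein of the peroxisomal membrane. Its log2 signal in WT arrays 1 to 5 was 11.58, 11.50, 11.74, 11.95 and 11.75, and in KO arrays 1 to 5 it was 11.62, 11.83, 11.64, 11.44 and 11.85. The groups covered nearly the same range, from the lowest in KO 4 to the highest in WT 4. The difference was -0.027 ± 0.099 log2 units (SE), with an adjusted p of limma of 0.979. A second set (1443046_at), very dim at 3.76, gave 0.29 ± 0.12 log2 units (SE, adjusted p of limma 0.885) and had r = 0.109 with the one used. The mean of both sets turned the sign to 0.13 ± 0.088 log2 units (SE).

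Neither oxidase passed the test. Acox2 oxidises bile acid intermediates and branched-chain acyl-CoA, and its log2 signal in WT arrays 1 to 5 was 6.08, 6.34, 6.07, 5.88 and 6.00. In KO arrays 1 to 5 it was 6.25, 6.25, 6.15, 6.02 and 5.79. The groups overlapped throughout, with the highest value in WT 2 and the lowest in KO 5, and the difference was 0.020 ± 0.10 log2 units (SE, adjusted p of limma 0.988). Its 1 probe set (1420673_a_at) lay close to the array medians.

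Acox3, an oxidase of branched-chain acyl-CoA, was steady in the set used. Its log2 signal in WT arrays 1 to 5 was 7.07, 7.12, 7.13, 6.94 and 6.98, and in KO arrays 1 to 5 it was 7.14, 7.21, 7.16, 7.07 and 7.06. All 5 values labelled KO lay above the WT mean, but 3 of the WT values lay among them. The difference was 0.08 ± 0.056 log2 units (SE), with an adjusted p of limma of 0.914 and an exact permutation p of 0.127. It was 0.020 ± 0.058 without WT 4 and WT 5. These were the lowest arrays here too, so leaving them out had to lower it. The second set (1437352_at) gave 0.015 ± 0.073 log2 units (SE) and had r = -0.012 with the one used over the 10 arrays, so the sets did not vary together.

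Ehhadh varied most of all members. It encodes the bifunctional enzyme that acts on long-chain and dicarboxylic acids and is a classic target of PPAR alpha. Its log2 signal in WT arrays 1 to 5 was 9.65, 9.27, 10.17, 10.16 and 9.48, and in KO arrays 1 to 5 it was 8.91, 10.62, 9.38, 8.86 and 10.96. The arrays labelled KO held both the 2 highest values (KO 5, KO 2) and the 2 lowest (KO 4, KO 1), a range of 4.31-fold, and WT lay between them. WT averaged 9.74 ± 0.41 (SD, n = 5) and the KO label 9.75 ± 0.98 (SD, n = 5). The KO minus WT difference was 0.0029 ± 0.40 log2 units (SE), with an adjusted p of limma of 0.999. Whether the spread itself differed between groups was not tested. The standard deviation within groups was 0.75 log2 units, above that of 99.05% of all genes, and that of Abcd2 was 0.58, above 98.4%. The median over all genes was 0.12.

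The arrays lowest in Ehhadh, KO 4 and KO 1, had muscle marker means of 10.64 and 5.52, and those highest in Ehhadh, KO 5 and KO 2, had 9.62 and 10.60. With the muscle mean as a covariate the Ehhadh difference was 0.18 ± 0.41 log2 units (SE), and that of Abcd2 was 0.55 ± 0.34. Without the 3 arrays lowest in muscle markers they were 0.34 ± 0.47 and 0.16 ± 0.37 log2 units (SE).

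Hsd17b4, the bifunctional enzyme for very long and branched chains, was the steadiest member by the set used for each gene. Its log2 signal in WT arrays 1 to 5 was 11.39, 11.35, 11.38, 11.39 and 11.28, and in KO arrays 1 to 5 it was 11.47, 11.35, 11.38, 11.30 and 11.39. The whole range was 1.14-fold and the groups overlapped. The difference was 0.018 ± 0.049 log2 units (SE, adjusted p of limma 0.967). The second set (1455777_x_at) gave 0.018 ± 0.058 and had r = 0.289 with the one used. Its standard deviation within groups, 0.05 log2 units, exceeded that of 3.045% of all genes, and Acox3 was also steady (0.07, above 10.95%). By the sets used, the bifunctional enzymes thus lay near opposite ends of the order of all genes by spread. The second sets spread more, with standard deviations within groups of 0.08 for Hsd17b4 and 0.11 for Acox3.

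Acaa1b encodes a thiolase, the enzyme of the last step, and its log2 signal in WT arrays 1 to 5 was 9.34, 9.16, 9.46, 9.52 and 9.38. In KO arrays 1 to 5 it was 9.15, 9.65, 9.02, 9.23 and 9.18. Of the values labelled KO 4 lay in the lower part of the WT range or below it, while KO 2 was the highest of all arrays. The difference was -0.13 ± 0.11 log2 units (SE), with an adjusted p of limma of 0.918 and an exact permutation p of 0.325. It was -0.23 ± 0.080 without KO 2 (adjusted p of limma 0.857) and -0.020 ± 0.13 without the 3 arrays lowest in muscle markers. Acaa1a is a near-identical copy, and 2 further probe sets that the annotation gives to both copies, left out by the rule, gave -0.026 ± 0.052 and -0.06 ± 0.051 log2 units (SE). The 2 sets of Acaa1a alone gave -0.013 ± 0.044 and -0.15 ± 0.070. How far the set named for Acaa1b also reads Acaa1a is not known here, so its identity is uncertain.

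**Figure D2:**
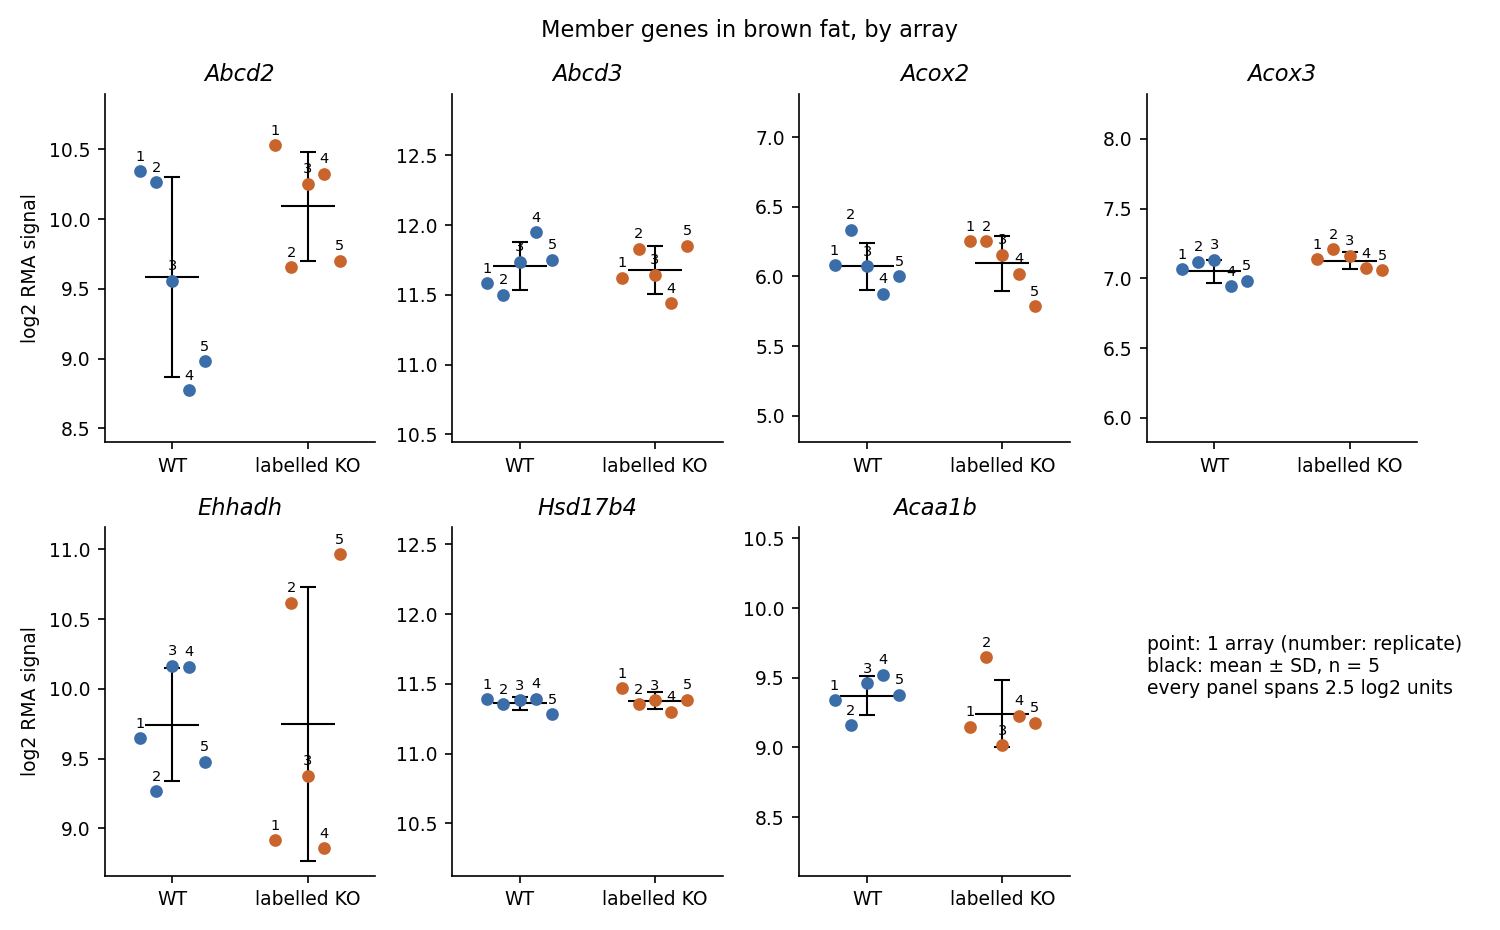
Log2 RMA signal of the 7 genes in each array, numbered by replicate, for WT (blue) and arrays labelled KO (orange), with the mean ± SD of n = 5 in black; each panel spans the same number of log2 units. Groups overlap in every panel, Ehhadh and Abcd2 spread widely (4.31-fold and 3.38-fold), and Hsd17b4 stays within 1.14-fold.

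Correlations among the members took both signs. Of the 21 pairs of members, 11 had a positive and 10 a negative Pearson correlation over the 10 arrays, with a median of 0.089. Together with Ppara (the gene of PPAR alpha) and with the mean of the mitochondrial beta-oxidation genes, 35 relations were computed; 0 had an adjusted p under 0.05 and 5 had an unadjusted p under 0.05, by permutation.

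**Figure D3:**
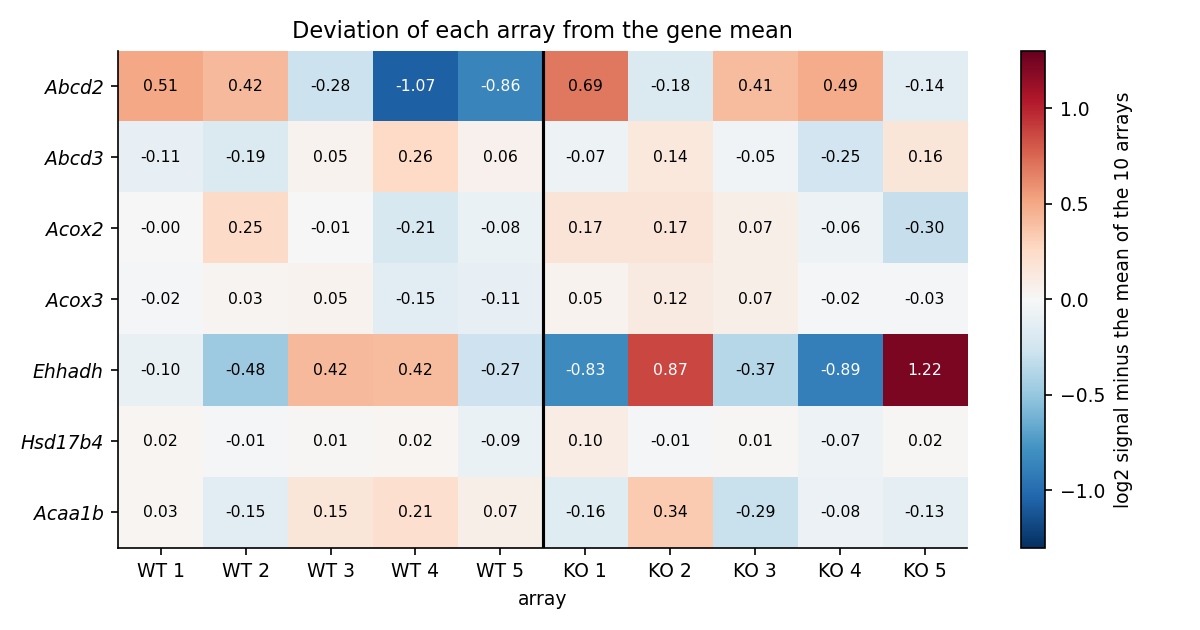
Log2 signal of each of the 7 genes in each of the 10 arrays minus the mean of that gene over the arrays, with WT left and arrays labelled KO right of the black line. The deepest colours are Ehhadh in KO 5 and Abcd2 in WT 4, and signs are often opposite between Abcd2 and Abcd3.

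Ehhadh and Abcd3 had the highest correlation of the members. Pearson's r was 0.802 (permutation p = 0.0055, adjusted 0.0964) and Spearman's rho 0.794 (permutation p = 0.0089) over 10 arrays. Without KO 2 and KO 5, the arrays farthest from the Ehhadh median, r was 0.776, and on values centred within genotype it was 0.806. The relation missed the threshold after adjustment. The 2 arrays highest in Ehhadh, KO 5 and KO 2, ranked just below WT 4 in Abcd3, and KO 4 was the lowest in both.

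The transporters had the lowest correlation of the members. For Abcd2 and Abcd3, Pearson's r was -0.804 (permutation p = 0.0055, adjusted 0.0964) and Spearman's rho -0.782 (permutation p = 0.010, adjusted 0.122). Pearson's r was -0.794 without WT 4 and WT 5, the arrays farthest from the Abcd2 median (adjusted permutation p = 0.214), and -0.856 on values centred within genotype, where the adjusted permutation p was 0.0677. None passed the threshold after adjustment. All 5 arrays with Abcd2 at 10.25 or above had Abcd3 at 11.64 or below, and the other 5 had Abcd3 at 11.74 or above.

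Acox2 and Acox3, the oxidases, gave r = 0.713 (permutation p = 0.020, adjusted 0.238) and rho = 0.782 (permutation p = 0.010), and r = 0.899 without WT 2 and KO 5. This holds for the Acox3 set used, with which the second Acox3 set had r = -0.012, and the second set was not compared with Acox2. Acaa1b and Abcd2 gave r = -0.649 (permutation p = 0.044, adjusted 0.306), rho = -0.661 (permutation p = 0.044) and r = -0.762 without KO 2 and KO 3. Abcd3 and the mitochondrial mean gave r = 0.645 (permutation p = 0.040, adjusted 0.306) and rho = 0.552 (permutation p = 0.105). For this pair r was 0.672 on values centred within genotype and 0.347 without WT 4 and KO 4. Those are the highest and lowest arrays in Abcd3, so leaving them out also narrows its range. With Ppara no member had an unadjusted permutation p under 0.05: r lay between -0.508 (Acaa1b, adjusted permutation p = 0.365) and 0.294 (Ehhadh, adjusted permutation p = 0.727), with rho of -0.309 and 0.321 (permutation p = 0.388 and 0.367). Without the 2 arrays farthest from the median these were -0.471 and -0.155. Within groups (n = 5 each) the r of Ehhadh with Ppara was -0.906 in WT and 0.651 with the KO label, so the pooled value joins opposite signs. The signs also differed between groups for every other member except Acaa1b (-0.886 and -0.331), and whether the groups differed was not tested. Pairs of members had r from -0.804 to 0.802, so these sign changes are not separate observations. All values use 1 set of Ppara (1439675_at), and its further sets were not compared with the members.

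**Figure D4:**
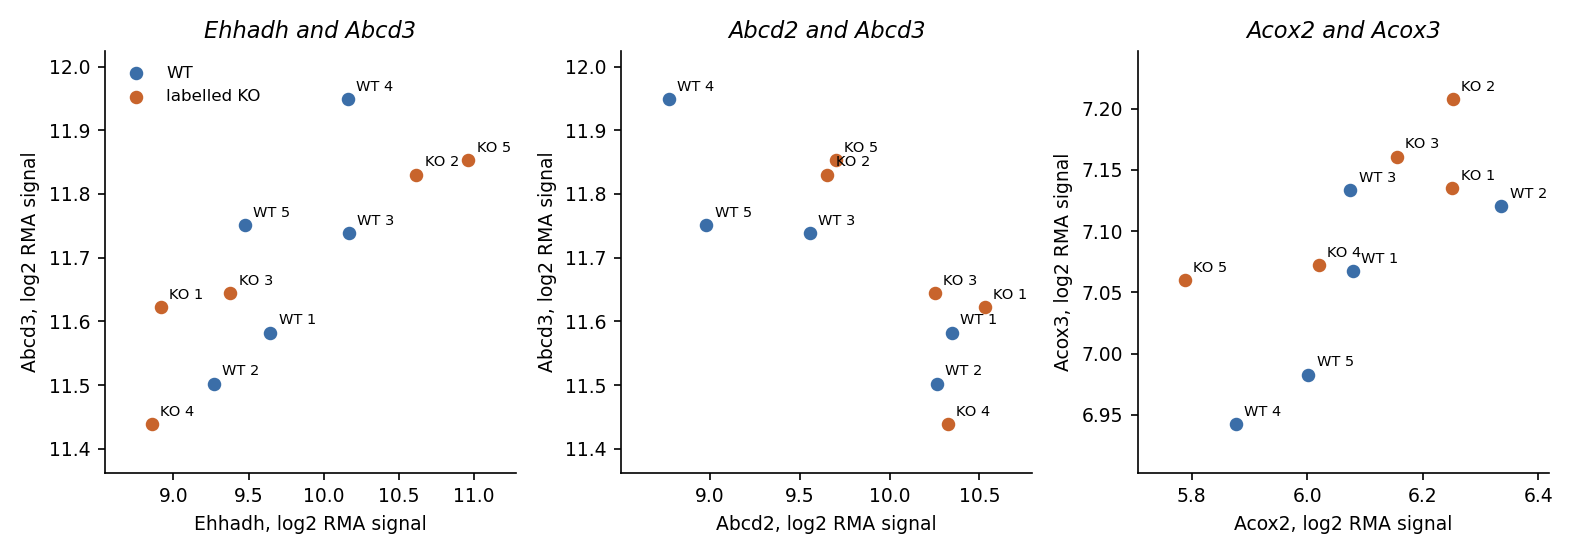
Log2 RMA signals of 3 pairs of members, 1 point per array, WT in blue and arrays labelled KO in orange. Abcd3 is higher in arrays with more Ehhadh (r = 0.802) and lower in arrays with more Abcd2 (r = -0.804), and Acox2 and Acox3 rise together (r = 0.713). Adjusted permutation p-values are 0.0964, 0.0964 and 0.238. Each gene is read by the set used for it, and the second sets of Acox3 and Abcd3 did not vary with those (r = -0.012 and 0.109).

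The genes most like each member were sought among 9095 genes above the median signal (9096 for Acox2, which lies below it), by Pearson's r over the 10 arrays. The values are from a screen of many genes over few arrays and are given as a description. For Ehhadh they were Tpp2, Fam117a (both 0.95) and Clock (0.945), a transcription factor of the circadian clock. For Abcd2 they were Chn1 (0.98), Dst (0.976) and Farp1 (0.974), and for Abcd3 Cdk8 (0.955), Gtpbp10 (0.949) and Slc43a2 (0.948). For Acaa1b they were Map2k4 (0.974), Prickle1 (0.953) and Tapt1 (0.934), for Acox2 Csnk1g2 (0.927), Ebf2 (0.895) and Mtfr1l (0.887), for Acox3 Wdyhv1 (0.928), Vrk1 (0.925) and Ssna1 (0.923), and for Hsd17b4 Inpp5e (0.907), Ccdc28a (0.869) and Lrsam1 (0.851). None of these 21 places was taken by another member. Acox2 was not among the genes screened, and every listed r exceeded the highest between members (0.802). With so many candidates, this outcome does not tell whether members vary together.

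The other genes of the pathway did not pass either. Of 21 measured genes of peroxisomal beta-oxidation outside the 7, 6 were higher and 15 lower in arrays labelled KO, or 71.4% lower against 56.1% of all genes, with a median of -0.05 log2 units and 0 past the test. That median was -0.0034 without WT 4 and WT 5, -0.030 without WT 5, -0.034 without KO 3, -0.027 without KO 4 and -0.10 without WT 2. Pecr, a reductase of enoyl-CoA, differed by -0.27 ± 0.13 log2 units (SE), and Scp2, which holds the thiolase for branched chains, by -0.11 ± 0.057. The further sets of Scp2 gave -0.09 ± 0.063, -0.08 ± 0.11 and, in a bright set, 0.011 ± 0.061. Slc27a2, which activates very long-chain fatty acids, was lowest at -0.28 ± 0.32, and Acot4, a thioesterase with a dim set (mean 5.83), highest at 0.12 ± 0.24.

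Peroxins, the proteins that build peroxisomes and import their enzymes, were lower in 9 of 13 (69.2%; median -0.07, 0 past the test). That median was -0.020 without WT 4 and WT 5, -0.041 without WT 4, -0.036 without KO 4 and -0.026 without KO 5. The values were -0.28 ± 0.13 log2 units (SE) for Pex6, part of the ATPase that recycles the import receptor, -0.09 ± 0.064 for Pex19 and 0.07 ± 0.082 for Pex5, the import receptor, which was the highest. Other peroxisomal enzymes were lower in 12 of 18 (66.7%; median -0.03, -0.019 without WT 1 and -0.05 without KO 2, 0 past the test), with Pxmp2, a channel of the membrane, at -0.22 ± 0.10, Mlycd, which breaks down malonyl-CoA, at -0.22 ± 0.11, and Nudt12 highest at 0.14 ± 0.073.

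Transcriptional regulators of the pathway were lower in 9 of 12 (75.0%; median -0.05, 0 past the test). That median was -0.018 without WT 4 and WT 5, -0.029 without WT 5 and -0.07 without WT 2. Rxra, the partner of the PPARs, differed by -0.22 ± 0.074 log2 units (SE), with an adjusted p of limma of 0.914, Rxrg by -0.15 ± 0.071 and Srebf1, highest, by 0.09 ± 0.24. Ppara differed by 0.06 ± 0.11 and Pparg, the adipocyte receptor, by -0.04 ± 0.086. The further sets of Ppara gave 0.35 ± 0.19 and 0.025 ± 0.14. Targets of PPAR alpha outside the peroxisome were higher in 6 and lower in 6 of 12 (median 0.0071, between -0.026 and 0.042 with 1 array left out, 0 past the test). Angptl4, an inhibitor of lipoprotein lipase, was highest at 0.52 ± 0.27, with WT 5 at 10.13 against 10.93 to 11.91 in the other WT arrays. Fgf21 was at 0.20 ± 0.099 and Acot1, a thioesterase, lowest at -0.34 ± 0.37, both from dim sets (means of 5.64 and 5.15). Mitochondrial beta-oxidation genes were lower in 11 of 16 (68.8%; median -0.04, -0.026 without KO 4, 0 past the test), from -0.18 ± 0.095 (Eci1) to 0.06 ± 0.053 (Decr1), with Etfdh at -0.14 ± 0.066.

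**Figure D5:**
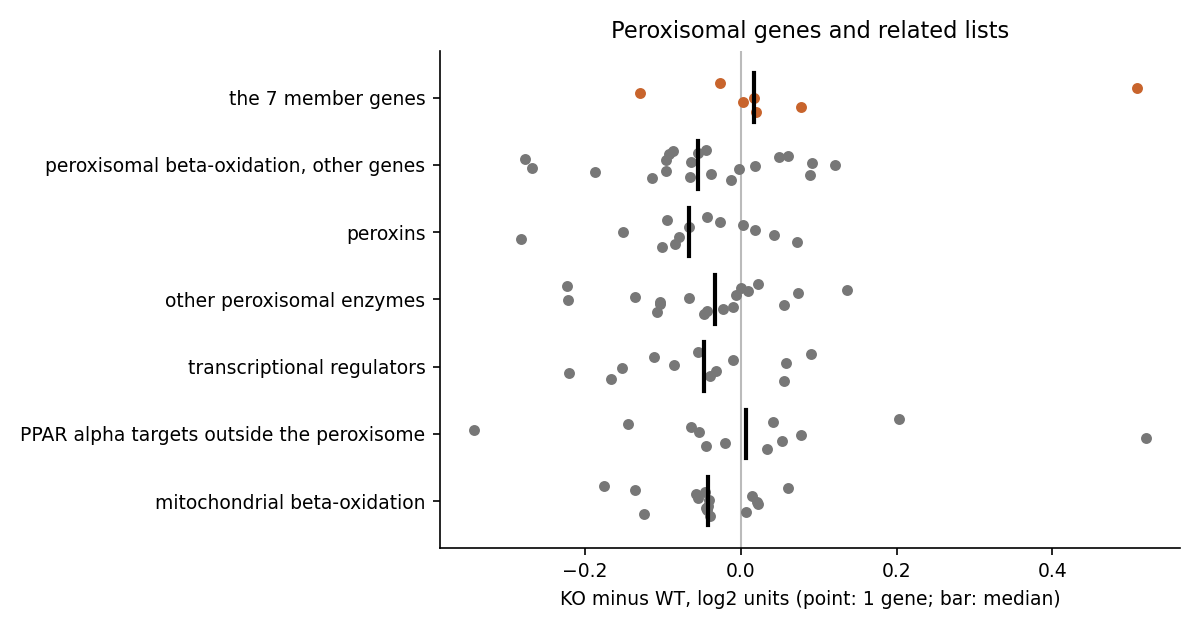
KO minus WT difference in log2 units of each gene in 7 lists, 1 point per gene, with the median of each list as a black bar; the 7 member genes are in orange. Medians lie between -0.07 (peroxins) and 0.018 (the members), and Abcd2 at 0.51 and Angptl4 at 0.52 lie farthest to the right.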

How the data were processed

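Total RNA of 10 brown fat samples was measured on Affymetrix arrays, 1 array per sample, from 6 ug of RNA per the labels. The deposited values are log2 signals made by the authors with RMA, per the submitters' processing notes; the sources used here give neither its version nor its settings. RMA makes array distributions alike, so a shift of most transcripts would not show, and it gives no detection call; the number of arrays limits the precision. Where nothing ties an array to a separate mouse, p-values measure only the spread between these samples.

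Probe sets with 1 gene (34945 of 45101; 932 had several, 9160 none, 64 were controls) were named through the platform annotation, 34741 of them updated by gene ID with RefSeq GRCm38.p6. For each of 18193 genes the set with the highest mean was kept; single probe sets were also fitted. Each difference came from limma 3.58.1 (lmFit, then eBayes; R 4.3.3) with genotype as the only term and two-sided p-values, with Benjamini-Hochberg adjustment over all genes or probe sets, and checked on simulated data. Groups were taken from sample titles. Exact permutation used all 252 ways to choose 5 of 10 arrays; correlations used 100000 permutations (numpy 2.4.6), adjusted over 35 relations.

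The members, 6 pathway lists, 9 marker lists and alternatives were chosen with earlier results of these data known. Genes named are the members, Sirt3, Ppara, Pparg, relatives of members, up to 2 genes per pathway list with the smallest unadjusted p, its highest and lowest gene, and the 3 genes most like each member. Lep, Retn and Dio2 are list markers chosen for mention after their values were seen. Replicate numbers did not pair the arrays: deviations of same-numbered arrays correlated between -0.395 and 0.236. Alternatives were other normalizations, variance models, array weights, probe set choices, a filter on dim genes, a muscle covariate, the replicate block and arrays left out. Figures were drawn with matplotlib 3.10.9.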

Additional observations from a re-analysis of the deposited data

How the results depend on the processing

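No gene passed the adjusted threshold by limma in any alternative run (0 in each), and no member did; the adjusted p-values of the members never fell below 0.644. Counts at an unadjusted p under 0.05 were 851 genes as reported, 469 with the fewer genes above the median signal, 1569 with the muscle covariate, 1418 without WT 2 and 1892 over all probe sets. The directions of Abcd2, Acox3 and Acaa1b held in all 23 alternatives, though Abcd2 ranged from 0.037 (without WT 4 and WT 5) to 0.70 (without WT 1). Several of those alternatives, such as the variance models and the filter on dim genes, could not move an estimate, so their direction was fixed in advance. Leaving out 1 array moved Abcd2 between 0.31 and 0.70, Acox2 between -0.029 and 0.096, Abcd3 between -0.077 and 0.034, Hsd17b4 between -0.0047 and 0.037 and Ehhadh between -0.30 and 0.23. Signs of these small differences turned as follows, and the cause was not tested: Abcd3 to 0.0011 after another quantile normalization, 0.13 with the mean of its probe sets, 0.070 without WT 4 and WT 5 and 0.014 without the 3 arrays lowest in muscle markers; Acox2 to -0.070 and -0.071 in those last fits; Hsd17b4 to -0.033 without the 3 arrays; Ehhadh to -0.0018 with centred arrays and -0.081 with array weights. The replicate block left every estimate as it was, with 736 genes at an unadjusted p under 0.05 and 0 called; the samples share only a number. Acox2 had no value when sets with the suffix _a_at and the like were left out. With no detection call, how far the dim sets of Abcd2, Abcd3 and Acox2, and those of Fgf21, Acot1 and Acot4, lay above background is not known.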
